A study of Mus musculus with 8 samples.

Results

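The genes described here are 10 Eph receptors and ephrins, taken by name from the count table: the receptors Epha2, Epha4, Epha5, Epha7, Ephb1 and Ephb2 and the ligands Efna5, Efnb1, Efnb2 and Efnb3. In the table their symbols stand in capitals (EPHA2, EPHA4, EPHA5, EPHA7, EPHB1, EPHB2, EFNA5, EFNB1, EFNB2 and EFNB3), and the mouse spelling is used below. All 10 were present among the 13937 rows of the table, and all 10 were among the 13509 genes that passed the filter on low counts and were tested. RNA was sequenced from primary astrocytes of C57BL/6 mouse brains taken on postnatal day 1. Wild-type (WT) cultures were either left without a stimulus (untreated WT) or given 10 ng/ml TGF-β over 24 h (treated WT). Pups lacking RGC-32 (RGC-32 KO; gene Rgcc), a regulator first described as a complement response gene, gave the same pair of cultures (untreated KO and treated KO). Each group had 2 libraries, which the study's methods call biological replicates, so 8 libraries were compared. Cells of all groups had been grown in serum, freed of loosely attached cells by shaking and kept without serum overnight. The deleted stretch of Rgcc and the number of pups behind a culture are not given in the sources used here.

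Eph receptors are a large family of receptor tyrosine kinases, and ephrins are their ligands, which stay attached to the surface of the neighbouring cell. Ephrin-A ligands are held by a lipid anchor and mostly bind EphA receptors, while ephrin-B ligands cross the membrane and mostly bind EphB receptors. Contact between cells sends a forward signal into the cell with the receptor and a reverse signal into the cell with the ephrin, and the usual outcome is repulsion. In the brain the system is known for axon guidance, the placing of cells and the shaping of synapses, and astrocytes carry several of its members.

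The libraries held 14920561 to 18956038 counts. Rgcc had 80 and 94 counts in untreated WT, 215 and 362 in treated WT, 61 and 28 in untreated KO and 64 and 26 in treated KO, so reads of the targeted gene were fewer in the knockout libraries but were not absent. All 10 astrocyte markers listed were in the table, with summed levels of 4620 to 4847 CPM in untreated WT, 3585 to 3705 in treated WT, 5342 to 6005 in untreated KO and 4384 to 4716 in treated KO (CPM, counts scaled to library size, here with TMM factors). Some markers of other cell types moved with TGF-β as well. For 11 of 12 meningeal fibroblast markers the sum was 4307 to 5539 CPM in untreated WT and 8943 to 10070 in treated WT, and 3559 to 3751 CPM in untreated KO and 6650 to 6795 in treated KO. Of these 11, 4 were called higher (Col1a1, Col1a2, Pdgfrb and Aldh1a2) and 2 lower (Dcn and Cldn11) in WT, and 4 higher and 1 lower in RGC-32 KO. Without Col1a1 and Col1a2, left out after their values were seen, the sum was 1353 to 1978 against 1975 to 2006 CPM in WT and 1357 to 1373 against 1446 to 1796 CPM in RGC-32 KO. For 8 of 9 oligodendrocyte lineage markers it was 229 to 266 CPM against 461 to 545 in WT and 221 to 262 against 374 to 491 in RGC-32 KO. That difference lay mostly in Cspg4, without which, again after its values were seen, the sum was 204 to 228 against 204 to 243 CPM in WT and 197 to 228 against 222 to 271 CPM in RGC-32 KO, and Pdgfra was called lower in both genotypes. Over untreated and treated libraries of both genotypes, the sums were 1133 to 1383 and 1047 to 1380 CPM for 10 microglial markers, 280 to 338 and 355 to 397 CPM for 5 of 10 neuronal markers, 104 to 132 and 71.1 to 84.4 CPM for 6 of 8 endothelial markers, and 393 to 473 and 256 to 315 CPM for 9 of 10 ependymal markers. Most of the neuronal sum was Map2, at 183 to 203 and 224.5 to 276 CPM. Tubb3 was at 15.1 to 20.5 and 33.6 to 35.8 CPM, and Stmn2 at 75.2 to 107 and 80.9 to 96.5 CPM. Of the astrocyte markers, 0 were called higher and 2 lower in each genotype. In WT, 1 microglial, 1 neuronal, 1 endothelial and 0 ependymal markers were called higher, and 0, 0, 1 and 5 lower. In RGC-32 KO, in the same order, 1, 1, 1 and 0 were called higher, and 0, 0, 2 and 3 lower. Of all genes tested, 7.72% were called higher and 5.65% lower in WT, and 6.61% and 4.93% in RGC-32 KO, with calls as defined below. No marker in the table had 3 counts or fewer in all libraries, and the part of these other cells in the values below was not tested. In bulk RNA, a different number of cells of a type and a different amount of RNA per cell cannot be told apart.

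The start sites of the genes that moved are shown first, because TGF-β acts through SMAD proteins, whose short binding motif is CAGAC. RefSeq promoter windows (GRCm38.p6, 250 bases before to 50 after the start) were matched for 9 of the 10 genes, all but Efnb3, and gave 10 windows. CAGAC, on either strand, was in 7 of these 10 windows, which belong to 6 genes, and in 49.6% of all 32851 windows. The 2 Epha7 windows overlap and hold the same match, so that by gene it was 6 of the 9. In the rest of the mouse Eph and ephrin family, 9 of 14 windows held CAGAC. The SMAD palindrome GTCTAGAC was in 0 of the 10 and in 0.213% of all windows, the AP-1 motif TGANTCA in 0 of the 10 and in 7.81%, and the TEAD motif GGAATG in 2 of the 10, those of Epha2 and Efnb2, and in 14.7%. None of these motifs contains another. The matches in the genes called after TGF-β in WT cells are printed 5′ to 3′ on the gene's strand, at most 30 bases each, with the matched letters in capitals (CAGAC or its reverse complement, or for Epha2 the reverse complement of GGAATG):
Ephb1, chr9:102354675-102354703, minus strand: cctcccccgtcaGTCTGgcccgctctgtc
Epha2, chr4:141300971-141300995, plus strand: acaaattCATTCCacatatttggac
Epha2, chr4:141301153-141301182, plus strand: cccctttaaagaCATTCCtgagggcgtggt
Epha4, chr1:77515310-77515338, minus strand: gatcgagacaagGTCTGgggcctctcgtg
Epha4, chr1:77515287-77515315, minus strand: ctcgtgggggcaCAGACccatcactgctg
Epha4, chr1:77515093-77515121, minus strand: tggcaatgtcttCAGACtgctgcactcct
Epha5, chr5:84417367-84417395, minus strand: acgctggagctcCAGACacagcaggagcg
Epha7, chr4:28813149-28813177, plus strand: agcaagcggccgGTCTGcagtcggagact
The Ephb1 match begins 3 bases into the transcript and the Epha7 match 31 bases into the first of its 2 listed transcripts. Genes that rose (Ephb1, Epha4, Epha7) and a gene that fell (Epha5) both held CAGAC, as did Efnb1 and Efnb2, which were not called. A match is a description of the letters and no evidence of binding.

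The first comparison asked how TGF-β changed these genes within each genotype. In WT cells TGF-β raised 4 of the 10 (Ephb1, Epha2, Epha7 and Epha4) and lowered 2 (Efnb3 and Epha5). In RGC-32 KO cells it raised 2 (Ephb1 and Epha2) and lowered 1 (Efnb3). A change was called where its log2 size reached 0.6, the fold threshold of the study, and its adjusted p was under 0.05, here by edgeR's quasi-likelihood test over all genes. In WT, 7.72% of all genes tested were called higher and 5.65% lower, and in RGC-32 KO 6.61% were called higher and 4.93% lower. Over the 10 genes, the log2 fold changes had medians of 0.44 (WT) and 0.25 (RGC-32 KO), against -0.005 and 0.003 over all genes tested. Without the fold threshold, 8 of the 10 in WT and 6 in RGC-32 KO had an edgeR adjusted p under 0.05, as did 32.9% and 28.4% of all genes tested. Several of the genes lay close to the fold threshold, so the counts of 6 and 3 depend on it.

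**Figure D1:**
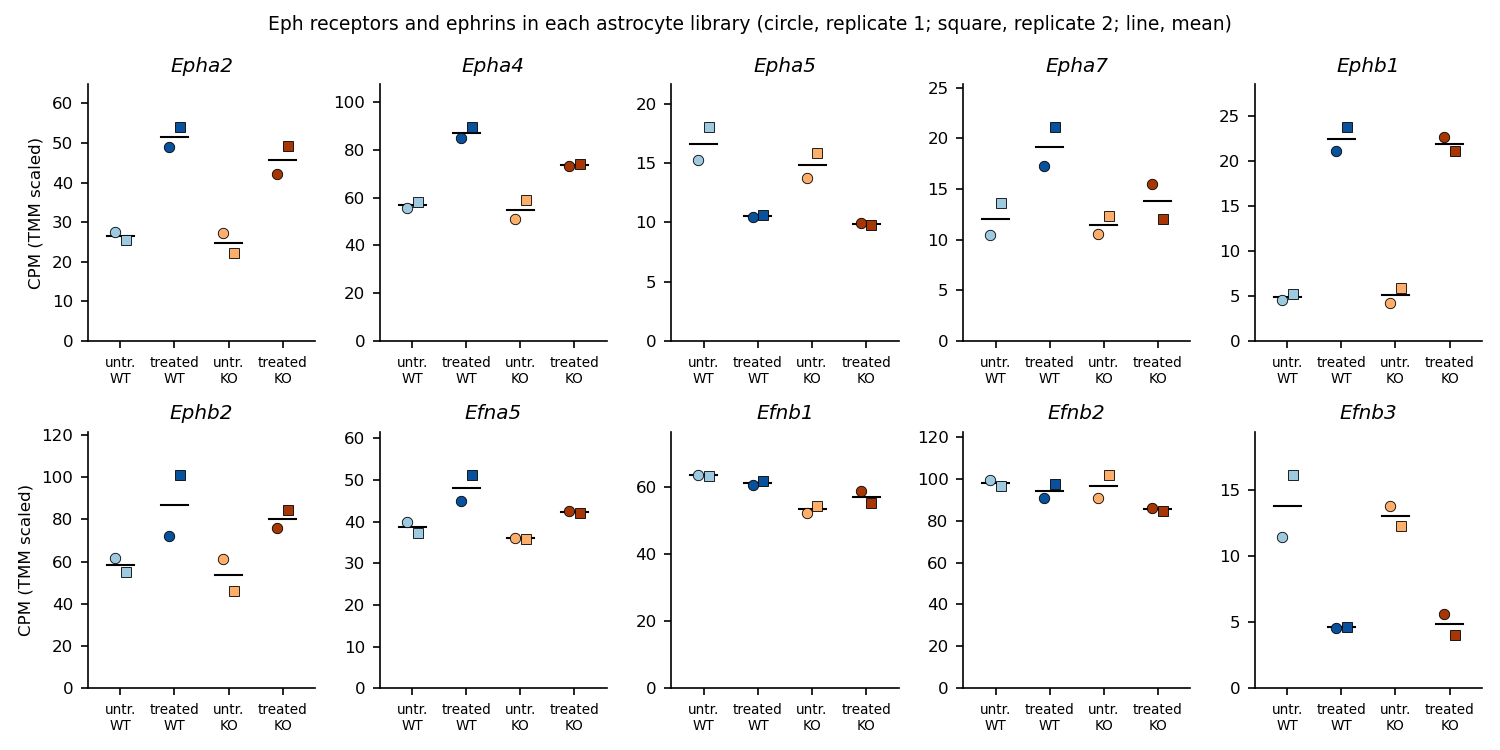
Each panel plots the TMM-scaled CPM of 1 gene (vertical axis, from 0) in the 8 libraries by group (untr., untreated), with circles for replicate 1, squares for replicate 2 and a line at the group mean. Ephb1 lies at 4.28 to 5.92 CPM in all control libraries and at 21.1 to 23.8 CPM in all TGF-β libraries, and Efnb3 lies at 11.4 to 16.2 and at 4.03 to 5.63 CPM.

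Ephb1 (chr9:101922128-102354693, GRCm38, minus strand) encodes a receptor for ephrin-B ligands that is known for steering retinal axons at the optic chiasm. Its level was 4.58 and 5.25 CPM in untreated WT and 21.1 and 23.8 CPM in treated WT, and 4.28 and 5.92 CPM in untreated KO against 22.7 and 21.2 CPM in treated KO. All 4 TGF-β libraries were far above all 4 control libraries, and the genotypes overlapped within each condition. The rise was 4.55-fold in WT (log2 fold change 2.19, SE 0.16, edgeR adjusted p = 0.000149) and 4.29-fold in RGC-32 KO (log2 fold change 2.10, edgeR adjusted p = 0.000203). By signed log2 fold change it ranked 135th of 13509 genes in WT and 147th in RGC-32 KO. The raw counts behind these levels were 71 and 88 in untreated WT and 382 and 372 in treated WT. Of its exonic bases, 2.17% (152 bases) overlap exons of Gm26846, a long noncoding RNA on the opposite strand, and the unstranded reads of that stretch cannot be assigned to either gene. It was the only one of the 10 genes whose exons overlapped those of another gene in GENCODE M21.

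Epha2 (chr4:141301240-141329384, plus strand), a receptor for ephrin-A ligands that is common in epithelia and dividing cells, was the other gene that rose in both genotypes. It measured 27.5 and 25.4 CPM in untreated WT, 49.0 and 54.0 CPM in treated WT, 27.3 and 22.2 CPM in untreated KO and 42.2 and 49.2 CPM in treated KO. Every TGF-β library was above every control library. The log2 fold change was 0.96 (SE 0.12) in WT, with an edgeR adjusted p of 0.000997, and 0.89 in RGC-32 KO, with an edgeR adjusted p of 0.00183.

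Epha4 (chr1:77367185-77515088, minus strand) is a receptor that binds ephrins of both classes and is known for limiting axon growth and dendritic spines. Its level was 55.7 and 58.1 CPM in untreated WT and 85.0 and 89.4 CPM in treated WT, and 50.9 and 59.0 CPM in untreated KO against 73.4 and 74.0 CPM in treated KO. The TGF-β libraries were higher in both genotypes without overlap, and the knockout TGF-β libraries were below the treated WT libraries. The log2 fold change was 0.62 (SE 0.08, edgeR adjusted p = 0.00108) in WT, just past the fold threshold, and 0.42 (edgeR adjusted p = 0.00612) in RGC-32 KO, short of it. The WT value also came short of the threshold without untreated WT replicate 1 (0.59) and without treated WT replicate 2 (0.56), and with upper-quartile scaling (0.53).

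Epha7 (chr4:28813131-28967499, plus strand), a receptor for ephrin-A5 known from cortical progenitors and axonal maps, measured 10.5 and 13.6 CPM in untreated WT and 17.3 and 21.1 CPM in treated WT. In the knockout it measured 10.5 and 12.3 CPM in control and 15.5 and 12.1 CPM with TGF-β. The groups were apart in WT, while in the knockout the second TGF-β library lay within the range of the control libraries. The log2 fold change was 0.67 (SE 0.18, edgeR adjusted p = 0.0245) in WT and 0.27 (95% interval -0.16 to 0.70, edgeR adjusted p = 0.303) in RGC-32 KO. The WT call was lost without untreated WT replicate 1 (0.49, edgeR adjusted p = 0.109), without treated WT replicate 2 (0.50, edgeR adjusted p = 0.143) and with upper-quartile scaling (0.58, edgeR adjusted p = 0.0398).

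Epha5 (chr5:84054761-84417382, minus strand), an axonal receptor for ephrin-A ligands, moved in the opposite direction. It measured 15.2 and 18.0 CPM in untreated WT and 10.5 and 10.6 CPM in treated WT, and 13.8 and 15.9 CPM in untreated KO against 9.92 and 9.78 CPM in treated KO. All TGF-β libraries were below all control libraries. The log2 fold change was -0.66 in WT (edgeR adjusted p = 0.00535) and -0.59 in RGC-32 KO (edgeR adjusted p = 0.011), which lie on either side of the fold threshold although they differ by 0.07. The WT call was lost without untreated WT replicate 2 (-0.55). The RGC-32 KO value passed the threshold when any of 4 libraries was left out: untreated WT replicate 2 (-0.61), either treated WT library (-0.60 each) or untreated KO replicate 1 (-0.705).

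Efnb3 (chr11:69554092-69560205, minus strand), a ligand of the ephrin-B class that forms a midline barrier for corticospinal axons, had the largest fall of the 10 genes. Its level was 11.4 and 16.2 CPM in untreated WT and 4.59 and 4.67 CPM in treated WT, and 13.8 and 12.3 CPM in untreated KO against 5.63 and 4.03 CPM in treated KO. All TGF-β libraries were below all control libraries, and the genotypes overlapped. The log2 fold change was -1.58 in WT (edgeR adjusted p = 0.00146) and -1.43 in RGC-32 KO (edgeR adjusted p = 0.00285). Among all genes ordered from the highest to the lowest log2 fold change, it ranked 13422nd of 13509 in WT and 13394th in RGC-32 KO.

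Ephb2 (chr4:136647539-136835988, minus strand), a receptor for ephrin-B ligands that acts at excitatory synapses, was not called. It measured 61.8 and 55.2 CPM in untreated WT and 72.3 and 101.3 CPM in treated WT, and 61.1 and 46.2 CPM in untreated KO against 76.1 and 84.5 CPM in treated KO. The TGF-β libraries were above the control libraries in both genotypes, with a wide spread between replicates. Its log2 fold changes of 0.57 (edgeR adjusted p = 0.0413) and 0.58 (edgeR adjusted p = 0.0435) stayed just under the fold threshold. It passed in WT without treated WT replicate 1 (0.80) and in the knockout without untreated KO replicate 1 (0.78). Without the latter library the knockout count was 5 genes in place of 3, with Epha5 and Ephb2 added.

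The remaining ligands changed less. Efna5 (chr17:62604184-62881317, minus strand), the lipid-anchored ligand known from retinal maps, measured 39.9 and 37.3 CPM in untreated WT and 45.0 and 51.3 CPM in treated WT, and 36.1 and 35.9 CPM against 42.5 and 42.0 CPM in the knockout. The groups did not overlap in either genotype, but its log2 fold changes were 0.32 (edgeR adjusted p = 0.016) and 0.23 (edgeR adjusted p = 0.0598). Efnb2 (chr8:8617434-8661242, minus strand), the ligand that marks arterial vessels, measured 99.4 and 96.6 CPM in untreated WT and 90.8 and 97.3 CPM in treated WT, and 90.9 and 102 CPM against 86.0 and 84.7 CPM in the knockout. Its WT groups overlapped, and the log2 fold changes were -0.06 in WT and -0.18 in the knockout. Efnb1 (chrX:99136130-99148991, plus strand), a ligand with roles in tissue boundaries and the skull, measured 63.8 and 63.4 CPM in untreated WT, 60.7 and 62.0 CPM in treated WT, 52.4 and 54.5 CPM in untreated KO and 59.0 and 55.2 CPM in treated KO. Its log2 fold changes were -0.05 in WT and 0.10 in the knockout, neither past the test, and the sign in the knockout was negative on the FPKM scale (-0.02).

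**Figure D2:**
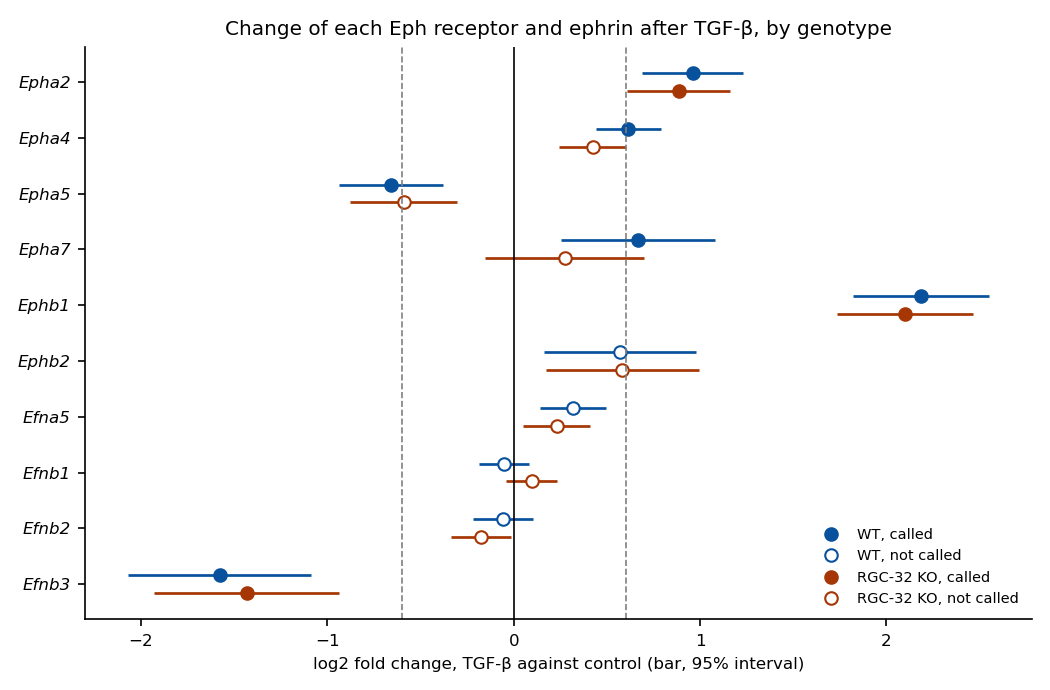
Points give the log2 fold change of each gene after TGF-β (horizontal axis) in WT and RGC-32 KO, with bars for the 95% interval, filled where called and open where not, and dashed lines at the fold threshold of 0.6 in each direction. Ephb1, Epha2 and Efnb3 are filled in both genotypes, and Epha4, Epha5 and Epha7 are filled in WT with open knockout points whose bars overlap those of WT.

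Averaged over both genotypes, TGF-β raised Ephb1 and Epha2 and lowered Efnb3 and Epha5, so 2 of the 10 were called higher and 2 lower. Over all genes tested, 8.33% were called higher and 6.75% lower in this average. The averaged log2 fold changes were 0.92 for Epha2, -0.63 for Epha5, 0.52 for Epha4 and 0.47 for Epha7, and the last pair stayed under the fold threshold. Without the fold threshold 8 of the 10 had an edgeR adjusted p under 0.05, as did 48.1% of all genes tested. The averaged call of Epha5 was lost without untreated WT replicate 2 (-0.58) and without untreated KO replicate 2 (-0.57). Ephb2, at 0.58 in the average, passed without untreated WT replicate 1 (0.62), treated WT replicate 1 (0.69), untreated KO replicate 1 (0.67) or treated KO replicate 1 (0.61).

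The second comparison asked whether the genotypes differed. None of the 10 genes was called between RGC-32 KO and WT, either in control cells (0.037% of all genes tested were called) or with TGF-β (0.0444%). DESeq2 and limma-voom likewise called 0 of the 10. Over all genes, edgeR called 5 in control and 6 with TGF-β, DESeq2 13 and 34, and limma-voom 4 and 3. At an unadjusted p under 0.05 edgeR gave 1 of the 10 in control, where 6.84% of all genes tested were at that level, and 3 with TGF-β, where 11.7% were. The gene among untreated cells was Efnb1, whose log2 difference (RGC-32 KO minus WT) was -0.25 (95% interval -0.39 to -0.12, edgeR adjusted p = 0.444) with no overlap between the genotypes. The 3 genes with TGF-β were Epha4 at -0.24 (95% interval -0.42 to -0.07, edgeR adjusted p = 0.293), Epha7 at -0.47 (95% interval -0.88 to -0.06, edgeR adjusted p = 0.37) and Efna5 at -0.19 (95% interval -0.36 to -0.01, edgeR adjusted p = 0.4). In each of them both knockout TGF-β libraries were below both treated WT libraries, and none passed the correction over all genes. The same order of libraries held with TGF-β for Efnb1, Efnb2 and Epha5, and in untreated cells for Efna5 as well as Efnb1. The share of all genes with such an order was not counted, so it is a description only. The estimate was negative, that is lower in RGC-32 KO, for 9 of the 10 genes in control and for 9 of the 10 with TGF-β. Leaving out a single library could change the sign in control for Epha2, Epha4, Epha7, Ephb1, Ephb2, Efnb2 and Efnb3. With TGF-β it could do so for Ephb1, Ephb2 and Efnb3. The 10 estimates share the same libraries, and a lowering of the set was not tested. The median over the 10 was -0.09 and -0.13, against -0.007 and 0 over all genes. Rgcc, the targeted gene, was not called by edgeR either. Its log2 difference was -2.54 with TGF-β, the largest in size of all genes tested (edgeR adjusted p = 0.133). In control it was -0.97 (edgeR adjusted p = 0.78). With 2 libraries in a group, a count of 0 called thus does not show that the genotypes were alike.

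The third comparison tested the difference itself, the TGF-β response in RGC-32 KO minus that in WT. None of the 10 was called (0% of all genes tested were), none had an unadjusted edgeR p under 0.05, and over all genes edgeR gave 381 (2.82%) at that unadjusted level, while DESeq2 and limma-voom also called 0. The difference was -0.39 for Epha7 (95% interval -0.99 to 0.20, edgeR adjusted p = 1), -0.19 for Epha4 (95% interval -0.44 to 0.06) and 0.07 for Epha5 (95% interval -0.33 to 0.47), the genes called in WT and not in RGC-32 KO. These intervals include 0, and that of Epha7 also includes a loss of the full WT change of 0.67. For the genes called in both genotypes it was -0.09 for Ephb1 (95% interval -0.61 to 0.44), -0.08 for Epha2 (95% interval -0.46 to 0.31) and 0.15 for Efnb3 (95% interval -0.56 to 0.85).

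**Figure D3:**
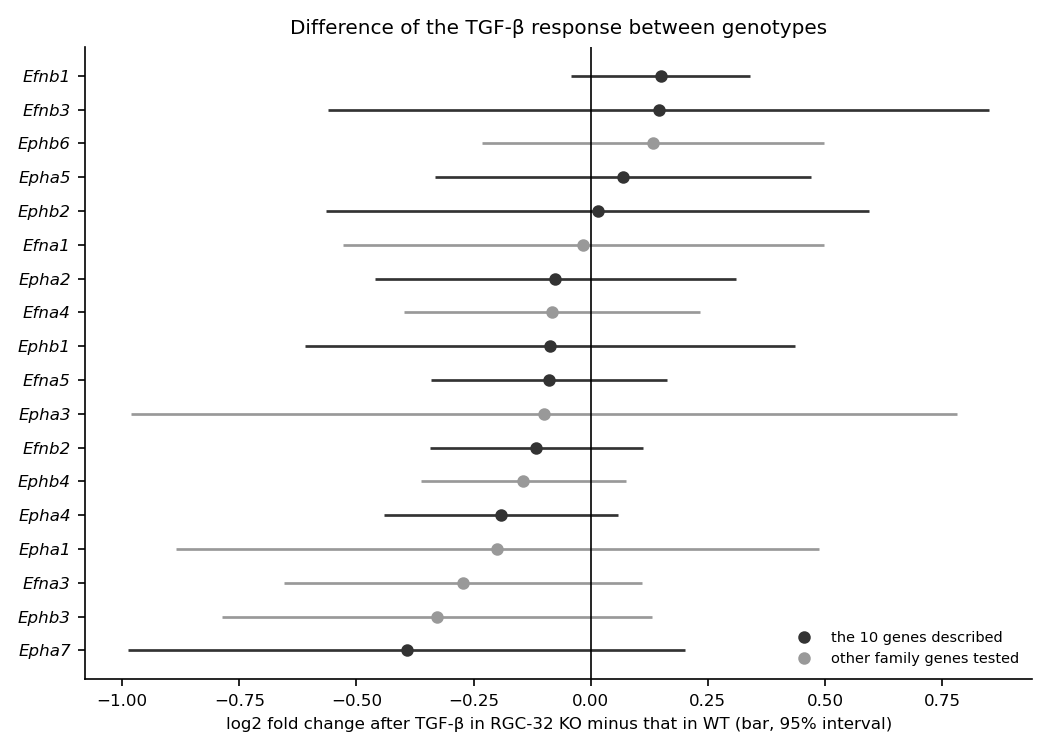
Points give the log2 fold change after TGF-β in RGC-32 KO minus that in WT (horizontal axis) for the 10 genes (dark) and the 8 other family genes tested (grey), ordered by value, with bars for the 95% interval. Every bar crosses 0, and Epha7 has the lowest estimate at -0.39.

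Levels can be compared between genes only per transcript length, for which the deposited FPKM (fragments per kilobase of transcript, scaled to depth) were used, with no test. On that scale the median log2 change of all genes after TGF-β was -0.11 in each genotype, so that the FPKM of a gene with no change in CPM was slightly lower with TGF-β. Efnb2 had the highest mean FPKM in all 4 groups (20.6 in untreated WT, 18.0 in treated WT, 20.5 in untreated KO and 16.8 in treated KO). Efnb1 came next (16.6, 15.0, 14.8 and 14.5 FPKM) and Epha4 after it (7.65, 10.8, 7.43 and 9.30 FPKM), and none of these neighbours overlapped in their libraries. In both control groups the order then ran Efna5, Epha2, Ephb2, Efnb3, Epha7, Epha5 and Ephb1, and in both TGF-β groups it ran Epha2, Efna5, Ephb2, Ephb1, Epha7, Efnb3 and Epha5. Ephb1 thus moved from the lowest place (1.02 FPKM in untreated WT and 1.04 in untreated KO) to the seventh (3.66 and 4.07 FPKM with TGF-β). Efnb3 moved from 3.95 and 3.67 FPKM in control to 1.15 and 1.23 FPKM with TGF-β. Neighbours whose library ranges overlapped were Ephb2 with Efnb3 and Epha7 with Epha5 in untreated WT, Efna5 with Ephb2 in treated WT, Epha7 with Epha5 in untreated KO, and Efnb3 with Epha5 in treated KO.

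**Figure D4:**
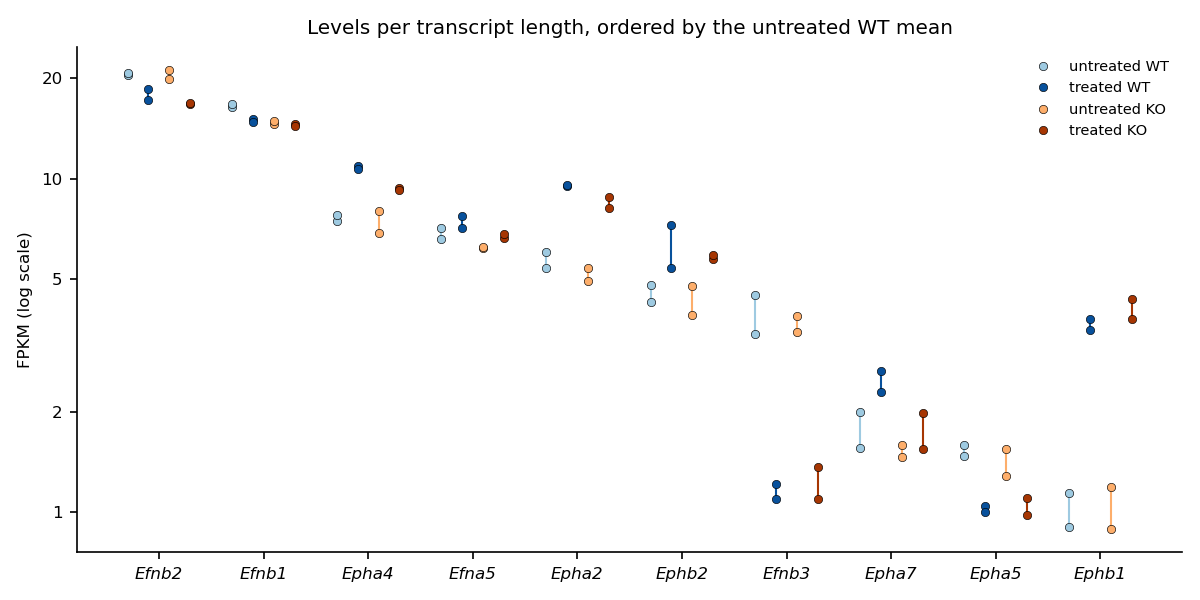
Points give the FPKM of each library (vertical log axis) for the 10 genes, ordered from left to right by the untreated WT mean, with colours for the 4 groups and a line joining the 2 libraries of a group. Efnb2 and Efnb1 lie highest in every group, and Ephb1 lies at 0.887 to 1.19 FPKM in control libraries and at 3.51 to 4.35 FPKM in TGF-β libraries.

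The rest of the mouse family was read for context. Of 12 further genes, 8 were in the count table, and 3 of them were called higher and 0 lower in each genotype, against 7.72% (WT) and 6.61% (RGC-32 KO) of all genes tested called higher. Ephb3, a receptor that sorts cells in the intestinal crypt, had log2 fold changes of 1.27 and 0.94 in WT and RGC-32 KO (edgeR adjusted p = 0.000645 and 0.00282). Ephb6, a receptor without kinase activity, had 1.09 and 1.22 (edgeR adjusted p = 0.000516 and 0.000408). Efna3, the ligand through which astrocytes contact neuronal Epha4, had 0.89 and 0.61 (edgeR adjusted p = 0.00125 and 0.00794), and 14.1% of its exonic bases overlap an antisense gene, Gm15998, so that its reads are uncertain. Epha1, Epha3, Ephb4, Efna1 and Efna4 were not called, with log2 fold changes from -0.14 to 0.30. Epha6, Epha8, Epha10 and Efna2 had no row in the count table, and Efna2 was read from the FPKM table, at 2.09 to 2.66 FPKM over the 8 libraries.

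Summed by class over the 10 genes and these others, the FPKM of the 5 EphB receptors was 26.8 and 29.3 in untreated WT and 44.5 and 45.2 in treated WT, and 27.7 and 27.1 against 43.1 and 42.0 in the knockout. The 6 EphA receptors summed to 17.8 and 18.7 FPKM in untreated WT, 25.4 and 25.5 in treated WT, 16.1 and 17.2 in untreated KO and 21.7 and 21.8 in treated KO. Both receptor classes were higher with TGF-β in every library. The 3 ephrin-B ligands summed to 40.4 and 42.0 FPKM in untreated WT, 33.7 and 34.6 in treated WT, 38.3 and 39.6 in untreated KO and 32.7 and 32.3 in treated KO, lower with TGF-β in every library. The 5 ephrin-A ligands differed less, at 28.0 to 31.2 FPKM over the control libraries and 30.6 to 34.6 FPKM over the TGF-β libraries. Of the ephrin-B ligands only Efnb3 was called lower on counts. Efnb1 (log2 fold change -0.05 in WT and 0.10 in RGC-32 KO) and Efnb2 (-0.06 and -0.18) were not called. As stated above, the FPKM of a gene with no change in CPM was slightly lower with TGF-β. In these sums EphB receptors were below ephrin-B ligands in each control library and above them in each TGF-β library. The EphB sum includes Ephb3, Ephb4 and Ephb6, which are not among the 10 genes. In untreated and treated WT their mean FPKM were 4.8 and 9.8, 9.8 and 9.6, and 7.9 and 15.5. Those of Ephb1 were 1.0 and 3.7, and those of Ephb2 4.5 and 6.3.

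Of 44 genes that carry Eph and ephrin signals inside the cell, 43 were tested, and 5 were called higher and 0 lower in each genotype, where 7.72% (WT) and 6.61% (RGC-32 KO) of all genes tested were called higher. Over the 43, the log2 fold changes had medians of 0.09 (WT) and 0.07 (RGC-32 KO), and their sizes without the sign had medians of 0.15 and 0.14, below the 0.21 and 0.20 of all genes. The 4 largest were Pdzrn3, a ubiquitin ligase whose family binds ephrin-B tails, at 1.23 and 1.15 in WT and RGC-32 KO, Tiam1 and Kalrn, exchange factors for Rac that act with EphB receptors in dendritic spines, at 1.13 and 1.07 and at 1.13 and 1.13, and Arhgef15, an exchange factor that acts downstream of Ephb2, at 1.09 and 1.22. Arhgef15 had only 8 to 22 counts in a library. None of the 43 was called between the genotypes or in the difference of the responses by edgeR, with 0, 3 and 2 of them at an unadjusted p under 0.05 in control, with TGF-β and in the difference, where 6.84%, 11.7% and 2.82% of all genes were.

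The genes whose log2 CPM followed Epha7 and Epha4 most closely over the 8 libraries were read from 13073 genes with a mean of at least 1 CPM. For Epha7 they were Zbtb26 (Pearson correlation 0.996), Rnf10 (0.993) and Ptpn4 (0.98), and for Epha4 they were Atrn (0.995) and Flna (0.994). The 8 points share their libraries and the TGF-β difference, so these are descriptions of the pattern only.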

How the data were processed

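Per the labels, total RNA of 8 cultures was made into unstranded libraries. The study's methods name STAR, run through VIPER, as the aligner, and the submitters' processing notes also name Cufflinks, DESeq and mm10. The authors deposited whole-number read counts per gene, not normalized, and a table of FPKM values. The counting program is not given in the sources used here, and that the second table holds FPKM rests on those notes. Deposited columns of the authors' own comparisons (fold changes and p-values) were not used.

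Counts were filtered with filterByExpr, TMM-scaled and fitted with edgeR 4.0.16 (quasi-likelihood, 4 group means, all 8 libraries) in R 4.3.3, with Benjamini-Hochberg adjustment over 13509 genes. SE and 95% intervals come from that fit. The p-values set each difference against the spread between the 2 libraries of a group. That spread was pooled over the 4 groups and drawn toward that of other genes. Replicates differed by more than counting noise (chi-square per degree of freedom 6.28 to 10.4). Alternatives used limma 3.58.1 (voom, or log2(FPKM + 1) for genes with a mean FPKM of at least 0.5), DESeq2 1.42.0, other scalings and filters, and each library left out. The code was tested on simulated data. Coordinates are from GENCODE M21 (GRCm38). Named genes are the 10 members, the rest of the family, the 4 largest called changes of the signalling list, Rgcc and the 3 genes most like Epha7 and Epha4, of which 1 is not reported here. The members and lists were chosen with earlier results of these data known.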

Additional observations from a re-analysis of the deposited data

How the results depend on the processing

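Over all 10 genes, the comparisons and the alternatives that gave a value, 1037 of 1120 values kept their direction and side of the threshold, 22 called values lost their call, 12 uncalled values gained one, and 49 changed sign, 0 of which had been called. Ephb1, Epha2 and Efnb3 kept their calls in both genotypes under every alternative tried, and 0 of the 10 genes were called between genotypes or in the difference of responses under any. In the difference of responses 0 of the 10 and 0 of all genes had an edgeR adjusted p under 0.05, even without the fold threshold. A call there also needed a log2 size of 0.6, close to the full WT changes of Epha4 (0.62) and Epha7 (0.67). With 2 libraries in a group and intervals as wide as those given above, the count of 0 does not show that the genotypes responded alike. Depth was low for Arhgef15 (8 to 22 counts in a library), Ephb1 in untreated cells (67 to 100) and Efnb3 in treated cells (61 to 84). The cause of the changes below was not tested.

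On the FPKM scale, with a pseudocount of 1 or 0.1 or without the filter, 3 of the 10 genes were called in WT in place of 6: Epha4 (0.45 or 0.49), Epha5 (-0.33 or -0.54) and Epha7 (0.33 or 0.46, limma adjusted p = 0.0523 to 0.0761) lost their calls. Over all genes these FPKM fits called 1104, 1727 and 1074 in WT, where the main fit called 1806. Without the fold threshold the count was 6 in RGC-32 KO in place of 3 and 8 in the average in place of 4. Leaving out each library in turn gave 4 to 7 genes in WT, 3 to 5 in RGC-32 KO (5 without untreated KO replicate 1) and 3 to 5 in the average. With only the libraries of the comparison, Epha4 in WT was 0.597, just under the threshold, and Epha5 in RGC-32 KO was -0.601, just past it, and that fit gives no value for the average and the difference of responses. Upper-quartile scaling turned the split over all genes in WT from 1043 higher and 763 lower to 857 and 1055, and in RGC-32 KO from 893 and 666 to 747 and 895, with Epha5 in RGC-32 KO past the threshold at -0.67.

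Signs changed only for uncalled values. On the FPKM scale Efnb1 was -0.024 in RGC-32 KO (-0.025 with a pseudocount of 0.1) and -0.082 in the average (-0.086), and -0.062 in the average with upper-quartile scaling. On the FPKM scale RGC-32 KO minus WT in treated cells was 0.012 or 0.02 for Epha5 and 0.12 or 0.15 for Ephb1, and the difference of responses was 0.11 or 0.13 for Ephb1 and -0.035 for Ephb2. With each library left out in turn, Efnb1 in the average ranged from -0.008 to 0.036. RGC-32 KO minus WT in untreated cells ranged from -0.251 to 0.047 for Epha2, -0.162 to 0.052 for Epha4, -0.251 to 0.12 for Epha7, -0.203 to 0.266 for Ephb1, -0.339 to 0.065 for Ephb2, -0.109 to 0.058 for Efnb2 and -0.311 to 0.19 for Efnb3. In treated cells it ranged from -0.127 to 0.067 for Ephb1, -0.346 to 0.164 for Ephb2 and -0.188 to 0.272 for Efnb3. The difference of responses ranged from -0.22 to 0.077 for Epha2, -0.061 to 0.184 for Epha5, -0.3 to 0.172 for Ephb1, -0.227 to 0.282 for Ephb2, -0.198 to 0.013 for Efna5 and -0.132 to 0.371 for Efnb3.

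The replicate numbers were not taken as a pairing. The deviations of same-numbered libraries from their group means correlated at 0.49 between the untreated groups and 0.25 between the treated groups. Between an untreated and a treated group the correlations were negative, at -0.34, -0.48, -0.51 and -0.35. What lies behind this pattern was not tested. With the replicate block, 6 of the 10 genes were called in WT, 3 in RGC-32 KO and 4 in the average. Over all genes that fit called 1616 in WT and 1369 in RGC-32 KO. With the numbers crossed between untreated and treated libraries, a pairing chosen after seeing the data, the counts were again 6, 3 and 4, and 2105 and 1852 over all genes. Between the genotypes the crossed fit called 10 genes in control and 36 with TGF-β, where the main fit called 5 and 6. Of the 10 genes it called 0 in either.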
